A study of Homo sapiens with 6 samples.

Results

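Genes of 2 extracellular proteolysis systems, the plasminogen activators and the matrix metalloproteinases, were followed in VCaP cells after SOX9 knockdown. The set held 9 genes: PLAT, PLAU, PLAUR, SERPINE2, MMP7, MMP10, MMP14, TIMP1 and TIMP2. They were found by exact gene symbol in the annotation of the array, which gave 18 of its 54675 probe sets and 9 of the 19775 genes with a probe set of their own. The genes were chosen by their function and selected on measured values, the signal differences of PLAT and MMP10 between SOX9 siRNA and control in these arrays. Levels in that contrast are therefore a description and no independent evidence. VCaP is a prostate cancer line grown in culture, and all groups carried its TMPRSS2/ERG fusion. Cells received SOX9 siRNA A, SOX9 siRNA B or a non-targeting control siRNA by transient transfection, and RNA was taken 72 h later. Each group held 2 arrays, 6 in all, which the design calls biological duplicates of this 1 line. The deposited value is a MAS5 signal, a linear brightness per probe set.

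Plasminogen is cut to plasmin, a broad protease, by tissue-type (PLAT) or urokinase-type (PLAU) plasminogen activator. PLAUR holds urokinase at the cell surface, and SERPINE2 is a serpin that inhibits both activators and thrombin. Matrix metalloproteinases are zinc enzymes made as inactive precursors that plasmin and other proteases can cleave to their active form, and TIMP proteins block their active site. In prostate tumours both systems are studied for their part in matrix breakdown and invasion.

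Promoter sequences of 7 of the 9 genes were matched by symbol in the RefSeq table of GRCh38.p14. PLAT and TIMP2 had no match there, so their promoters are not described. The windows of MMP10 and MMP7 are shown because both genes lie in the metalloproteinase cluster of chromosome 11 and only MMP10 had separate levels between SOX9 siRNA and control arrays. Each is the minus-strand sequence of the 250 bases before the start of the gene, chr11:102780629-102780878 for MMP10 and chr11:102530748-102530997 for MMP7. Capitals mark matches, on either strand, to TGANTCA (AP-1 type), AGGAAG (PEA3-type ETS), ACAATG or ACAAAG (SOX type) and TATAAA.
MMP10: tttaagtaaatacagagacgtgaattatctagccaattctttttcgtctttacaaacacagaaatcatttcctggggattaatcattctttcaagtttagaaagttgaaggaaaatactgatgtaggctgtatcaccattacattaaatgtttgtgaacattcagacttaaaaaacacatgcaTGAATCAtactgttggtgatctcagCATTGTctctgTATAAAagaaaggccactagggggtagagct
MMP7: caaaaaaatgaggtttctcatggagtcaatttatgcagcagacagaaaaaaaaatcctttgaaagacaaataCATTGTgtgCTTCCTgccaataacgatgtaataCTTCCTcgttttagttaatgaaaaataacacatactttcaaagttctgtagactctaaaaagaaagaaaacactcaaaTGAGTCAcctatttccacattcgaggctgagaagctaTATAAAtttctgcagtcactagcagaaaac
In both windows the TGANTCA match began 67 bases before the start, and TATAAA began 31 bases before it for MMP10 and 30 for MMP7. The ACAATG match began at 42 bases in MMP10 and at 178 in MMP7, and in both it lies on the opposite strand as CATTGT. MMP7 also held AGGAAG at 169 and 145 bases, read as CTTCCT, and MMP10 held none. No capital marks 2 motifs at once. Of 35116 windows of this length in the table, 6.57% held TGANTCA, 28.7% AGGAAG, 9.29% ACAATG, 13.7% ACAAAG and 10.7% TATAAA. Such matches are a description of letters, not of bound sites.

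SOX9, the targeted gene, had a lower signal in all 4 knockdown arrays than in both control arrays. Its brightest probe set, 202935_s_at, read 1469 and 1126 with control, 1108 and 673 with siRNA A, and 609 and 334 with siRNA B (replicates 1 and 2). A second probe set, 202936_s_at, read 1558 and 1270, 861 and 586, and 570 and 293 in the same order. Group means for control, siRNA A and siRNA B were 1298, 890 and 471 in the first and 1414, 723 and 431 in the second. In both probe sets SOX9 was lower in replicate 2 than in replicate 1 of each siRNA and also of control. Replicate 1 of siRNA A lay closest to control. The tests of SOX9 given here used 202935_s_at only, in which siRNA A lay closer to control than in 202936_s_at. On the log2 scale used below it was at -0.57 (limma adjusted p = 0.999) with siRNA A. With siRNA B it was at -1.48 (limma adjusted p = 0.111), so neither difference was called. With the replicate number as a block siRNA B was called (limma adjusted p = 1.77e-05) and siRNA A was not (limma adjusted p = 0.528).

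PLAT, the tissue-type activator, had the second-lowest log2 fold change of all 12421 tested genes for both siRNAs against control. Its 1 probe set, 201860_s_at, read 311 and 257 with control siRNA. It read 172 and 1.5 with siRNA A, and 73.0 and 9.2 with siRNA B, replicates 1 and 2 in each. All 4 knockdown arrays lay below both controls, and both replicate 2 arrays lay far below their replicate 1 partners. Group means (± SD, n = 2 each) were 284 ± 38.1 for control, 86.7 ± 120.4 for siRNA A and 41.1 ± 45.1 for siRNA B. The SD thus exceeded the mean within siRNA A and within siRNA B. In arrays of whole cultures, fewer cells with a transcript and less of it per cell cannot be told apart.

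Differences are given as log2(signal + 16), which understates the change of dim probe sets. On this scale PLAT differed from control by -2.52 (SE 0.64) for both siRNAs, or 17.4% on that scale. Every SE given is limma's, which draws the spread of a gene toward that of genes of similar signal. The pooled SD of PLAT itself within groups was 1.59. A robust variant of the fit (robust eBayes) gave an SE of 1.32 for both siRNAs, so 0.64 can be too small. The mean linear signal of the 4 knockdown arrays was 22.5% of control. The log2 difference of PLAT was -2.38 (SE 0.74) with siRNA A and -2.66 (SE 0.74) with siRNA B. Between arrays of the same replicate number it was -1.34 in replicate 1 and -3.70 in replicate 2. The signals of 1.5 and 9.2 lie under the level of 22 used to leave out dim genes, so the size in replicate 2 is uncertain. Without replicate 2 of siRNA A the siRNA A difference was -0.67, and without its replicate 1 it was -4.10. For both siRNAs it was -1.67 without replicate 2 of siRNA A and -1.21 without replicate 2 of both siRNAs.

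MMP10, stromelysin-2, an enzyme that degrades proteoglycans, fibronectin and other matrix proteins, was higher in every knockdown array. Its probe set, 205680_at, read 66.7 and 67.6 with control, 176 and 192 with siRNA A, and 337 and 177 with siRNA B. The lowest knockdown array was 176 and the highest control array 67.6, with no overlap. Group means (± SD, n = 2 each) were 67.2 ± 0.636 for control, 184 ± 11.3 for siRNA A and 257 ± 113 for siRNA B. MMP10 had the 11th highest log2 fold change for both siRNAs, 1.46 (SE 0.26), or 2.75-fold on that scale, and 3.28-fold in mean linear signal. The difference was 1.27 (SE 0.30) with siRNA A and 1.65 (SE 0.30) with siRNA B. By replicate number it was 1.65 in replicate 1 and 1.26 in replicate 2, so MMP10 was well above control in both.

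**Figure D1:**
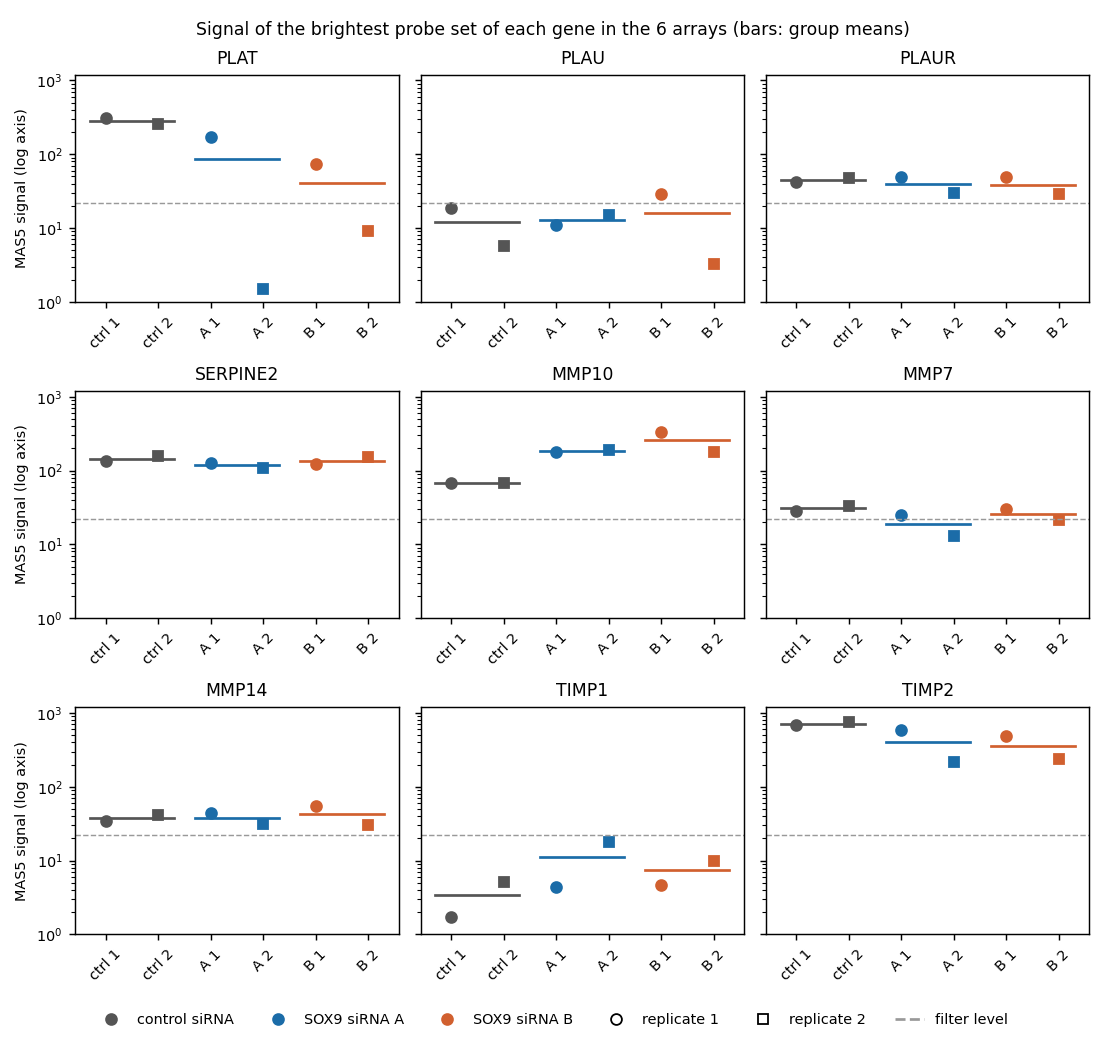
MAS5 signal (log axis) of the brightest probe set of each of the 9 genes in the 6 arrays, coloured by siRNA, with circles for replicate 1 and squares for replicate 2. Horizontal bars are group means (n = 2) and the dashed line is the dim-gene level of 22; PLAT and TIMP2 lie below both controls in all knockdown arrays and MMP10 lies above.

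TIMP2, an inhibitor that also takes part in the activation of MMP2 by MMP14, was the other member with separate groups in its brightest probe set. Its brightest probe set, 231579_s_at, read 690.3 and 746 with control, 598 and 219 with siRNA A, and 486 and 237 with siRNA B. Group means were 718 ± 39.7, 409 ± 268 and 361 ± 176 (SD, n = 2 each). The difference for both siRNAs was -0.996 (SE 0.35), or 50.1% on that scale and 53.6% in mean linear signal. By replicate number it was -0.35 in replicate 1 and -1.64 in replicate 2, so most of it lay in replicate 2. Without replicate 2 of siRNA A it was -0.65, and without replicate 2 of both siRNAs -0.40.

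A second TIMP2 probe set, 224560_at, read 391 and 350.5 with control, 278 and 84.7 with siRNA A, and 326 and 127 with siRNA B. Its difference was -0.99, close to that of the first, again with both replicate 2 arrays lowest. The third, 203167_at, read 46.3 and 30.9, 24.6 and 6.8, and 76.9 and 25.8 in the same order. In that probe set replicate 1 of siRNA B was the highest of all arrays, the groups overlapped and the difference was -0.31. The 3 probe sets thus disagreed in replicate 1 of siRNA B and shared the lower replicate 2 within each siRNA. The paralogue TIMP1 had 1 probe set, with signals from 1.7 to 17.7 in the 6 arrays, all under 22, and was not tested.

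Urokinase was dim in every group. PLAU probe set 205479_s_at ran from 3.2 to 28.7 and 211668_s_at from 0.9 to 8.1, with knockdown and control arrays overlapping in both, and PLAU was not tested. The urokinase receptor PLAUR gave a different pattern in each of its 3 probe sets. In 210845_s_at control was 41.9 and 47.9, siRNA A 49.8 and 30.1 and siRNA B 48.3 and 29.3, a difference of -0.16 with overlapping groups. In 211924_s_at control was 34.8 and 35.5, siRNA A 36.1 and 3.2 and siRNA B 22.7 and 3.6. Both replicate 2 arrays were near the floor there, while replicate 1 of siRNA A stood at the control level. In 214866_at control was 5.3 and 6.6, siRNA A 19.0 and 20.9 and siRNA B 17.4 and 13.7, all under 22 and higher in each knockdown array. The direction of PLAUR therefore depended on the probe set.

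**Figure D2:**
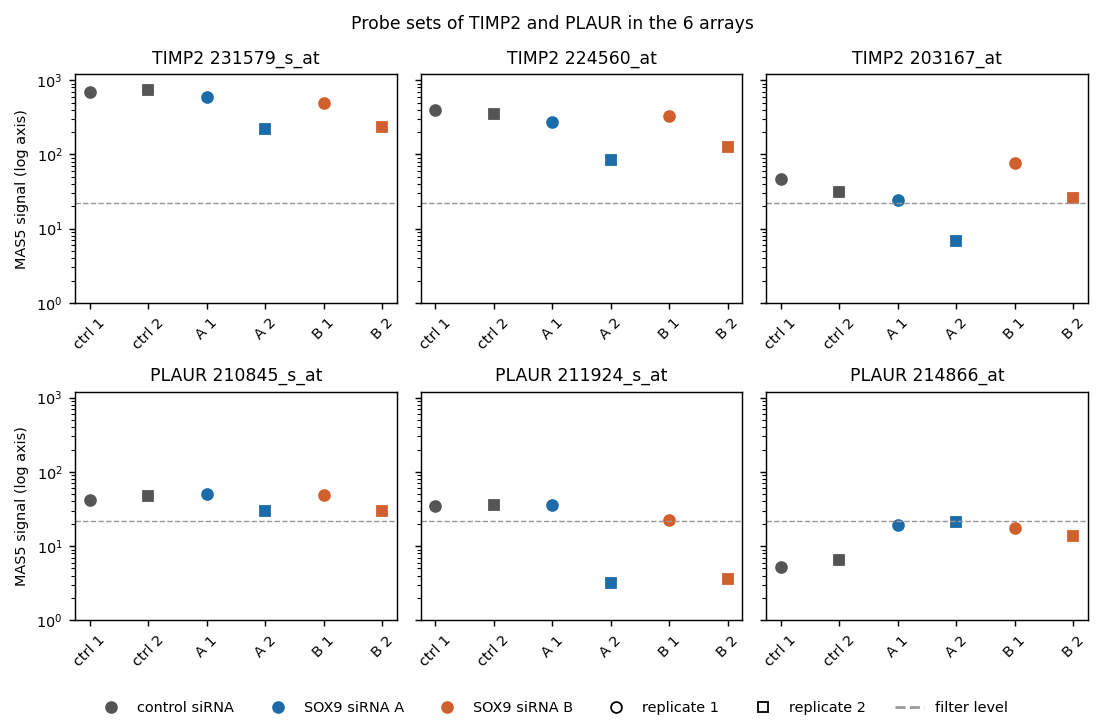
MAS5 signal (log axis) of the 3 probe sets of TIMP2 and the 3 of PLAUR in the 6 arrays, with symbols as in the plot of all members and the dashed line at 22. The low replicate 2 arrays of both siRNAs recur in TIMP2 and in PLAUR 211924_s_at, where they read 3.2 and 3.6, but not in PLAUR 214866_at.

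SERPINE2, the inhibitor of both activators, read 133 and 156 with control, 126 and 109 with siRNA A, and 121 and 152 with siRNA B in 212190_at. The groups overlapped, and the difference was -0.17 (SE 0.23). MMP7, matrilysin, a small metalloproteinase of epithelial cells, read 28.6 and 33.2 with control, 24.7 and 13.1 with siRNA A, and 29.7 and 21.5 with siRNA B. Its difference of -0.31 (SE 0.28) was close to its standard error. MMP14, the membrane-anchored enzyme that activates MMP2, read 34.8 and 41.6 with control, 44.1 and 31.6 with siRNA A, and 54.9 and 30.5 with siRNA B in 160020_at. Its difference was 0.03 (SE 0.27). The other 3 MMP14 probe sets never exceeded 19.3. The second SERPINE2 probe set, 227487_s_at, read 10.7 and 9.6 with control and from 1.2 to 8.5 in the knockdown arrays. It was lower in each knockdown array, with all values under 22.

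In all, 7 of the 9 genes passed the filter on dim genes and 2, PLAU and TIMP1, did not. Among the 7, PLAT and TIMP2 lay below both controls in all 4 knockdown arrays, as did 11.8% of all tested genes, and MMP10 lay above, as did 4.56%. The other 4 overlapped in their brightest probe sets. Called genes had a limma adjusted p below 0.05. With limma, 0 of the 7 were called for both siRNAs, where the background was 0.0403% of genes, and 3 of the 7 had an unadjusted p below 0.05, as did 7.76% of all tested genes. With siRNA A 0 were called (background 0.0161%), with 3 of 7 at an unadjusted p below 0.05, as were 4.73% of genes. With siRNA B MMP10 alone was called (background 0.185%), with 3 of 7 at an unadjusted p below 0.05, as were 11.3% of genes. These counts use the contrast in which the genes were chosen. The MMP10 call with siRNA B was lost without replicate 1 or replicate 2 of siRNA A and without replicate 2 of siRNA B. Rescaling the arrays by quantiles, by their medians or by their trimmed means also ended it, where 0% of all genes were called. The difference itself stayed at 1.69, 1.67 and 1.66. The median difference of the 7 was -0.17, beside -0.04 over all tested genes.

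With the replicate number as a block, PLAT, MMP10 and TIMP2 were called for both siRNAs, where the background was 3.54% of genes. Their limma adjusted p was then 7.83e-22, 1.63e-07 and 0.00315. The same 3 were called for siRNA A (background 1.8%) and for siRNA B (background 5.89%). That fit assumes an equal replicate difference in all groups, whereas for PLAT replicate 2 minus replicate 1 was -3.42 in siRNA A, -1.82 in siRNA B and -0.26 in control. The fit also took the spread of every gene from limma's trend alone, so these p-values do not use the spread of PLAT or TIMP2 itself and can be too small.

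**Figure D3:**
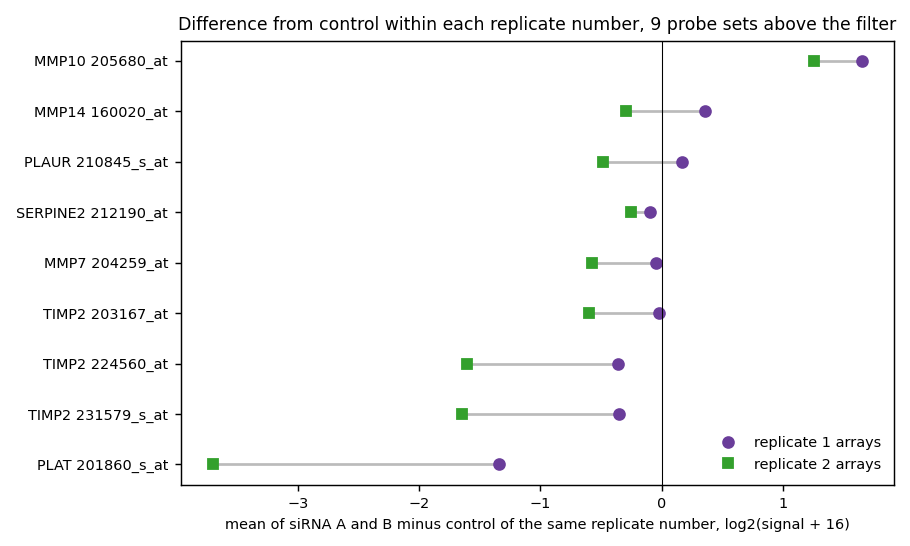
Difference of the mean of siRNA A and siRNA B from the control array of the same replicate number, in log2(signal + 16), for the 9 member probe sets above the dim level; circles are replicate 1 and squares replicate 2. PLAT was at -1.34 and -3.70, TIMP2 231579_s_at at -0.35 and -1.64, and MMP10 at 1.65 and 1.26.

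Few genes shared the low replicate 2 values of PLAT. Of the tested genes, 1.02% were lower in replicate 2 than in replicate 1 by at least 1 log2 unit in both SOX9 siRNAs, and PLAT was the 1 member among them. In the other direction the share was 0.539%, and in control 0.169% were lower by that much, with no member in either. TIMP2 was at -1.38 and -0.99, just outside on the siRNA B side. Its second probe set, 224560_at, was at -1.54 and -1.25 and lay inside, as did 0.74% of single probe sets. For MMP10 the same difference was 0.12 in siRNA A and -0.87 in siRNA B, where its replicate 1 was the higher array. The ratio of 3' to 5' ACTB signal, a sign of RNA quality, was 3.79 in replicate 2 of siRNA A and 2.91 in replicate 2 of siRNA B, the highest and the lowest of the 6 arrays. The same ratio for GAPDH was 1.10 to 1.19 in the 4 knockdown arrays and 1.04 to 1.05 in control, so it was higher in every knockdown array. The part of these ratios in the differences between replicates or from control was not tested. The replicate 2 knockdown arrays also had the lower SOX9 signal within their siRNA, and replicate 2 was the lower array in control too. Across arrays SOX9 was lowest in replicate 2 of siRNA B, and MMP10 was highest in replicate 1 of siRNA B. PLAT read 1.5 in replicate 2 of siRNA A and 9.2 in replicate 2 of siRNA B. Both lie under 22, so their order is uncertain.

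The contrast of siRNA A with siRNA B asks whether the 2 siRNAs gave the same levels. It is not the contrast in which the genes were chosen, but it uses the same knockdown arrays. A lack of difference here is therefore no independent evidence. No member was called (limma, 0 of 7; background 0.0966%; 0 at an unadjusted p below 0.05, where 8.24% of genes lay), nor with the replicate block (background 2.91%). Tested as single probe sets with the block, 1 of 9 was called, the third TIMP2 probe set, 203167_at (limma adjusted p = 0.0285; background 2.6% of probe sets), which was lower with siRNA A. PLAT was 0.28 higher with siRNA A than with siRNA B (95% interval -1.29 to 1.84, limma adjusted p = 0.977). This interval allows more than 2-fold in either direction, so the siRNAs are not shown to act alike on PLAT. It uses limma's SE of 0.74, where robust eBayes gave 1.52, so the interval can be too narrow. MMP10 was at -0.38 (95% interval -1.03 to 0.26, limma adjusted p = 0.866). That sign rests on replicate 1 of siRNA B, without which it was 0.052. TIMP2 was at 0.09 (95% interval -0.77 to 0.96, limma adjusted p = 0.984). The other 4 ran from -0.27 for MMP7 to 0.03 for PLAUR, with limma adjusted p from 0.940 to 0.993.

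The genes closest in pattern to PLAT, by Euclidean distance of centred log2 values over the 6 arrays, were CXCL8, LTF, CCL20, LYPD6 and CXCL10. Their distances ran from 0.922 to 1.35 and their Pearson r with PLAT from 0.943 to 0.994, across 6 arrays that include the replicate pairs. CXCL8, the chemokine interleukin 8, read 1060 and 784 with control, 1080 and 58.7 with siRNA A, and 504 and 95.7 with siRNA B. LTF, lactotransferrin, read 157 and 123, 80.7 and 1.6, and 56.0 and 4.1 in the same order. Both replicate 2 knockdown arrays were the lowest in all 5 genes. The genes were chosen by likeness to PLAT in these same arrays, so this and the high r follow largely from the choice. Replicate 1 of siRNA A was above both controls for CXCL8, CCL20, LYPD6 and CXCL10, and below both for LTF, as for PLAT.

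The genes closest to MMP10 were COL5A2, COXFA4L3, LBH, CREB3L1 and ZDHHC19, at distances of 0.683 to 0.997 and Pearson r of 0.854 to 0.934. COL5A2, a chain of type V collagen, read 41.3 and 19.8 with control, 79.7 and 85.6 with siRNA A, and 113 and 79.4 with siRNA B. CREB3L1, a membrane-bound transcription factor, read 11.3 and 7.7, 28.4 and 35.4, and 32.4 and 33.9 in the same order. All 5 were above both controls in all 4 knockdown arrays. They were chosen by likeness to MMP10 in these same arrays, so this and the high r follow largely from the choice.

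**Figure D4:**
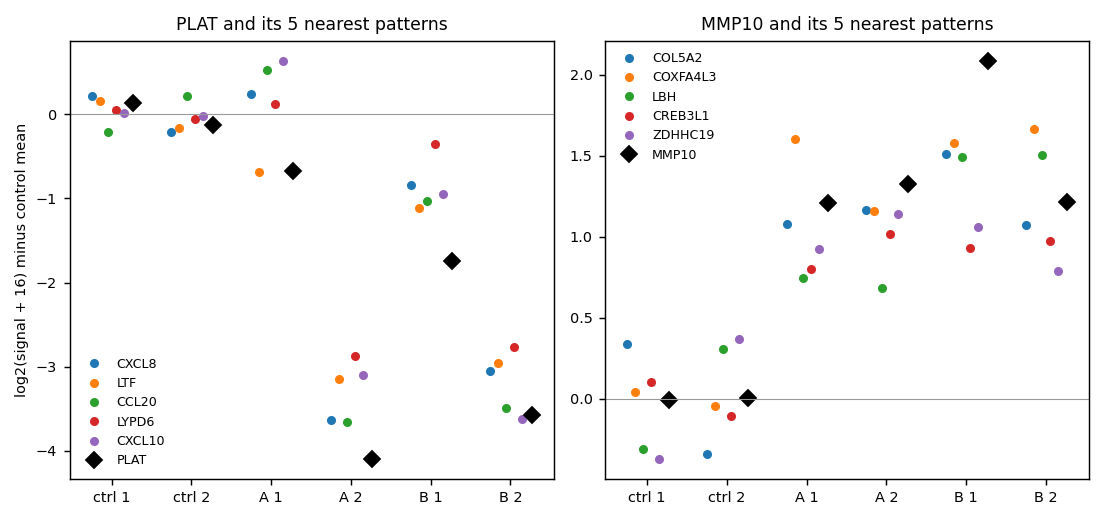
Log2(signal + 16) minus the control mean in each of the 6 arrays (ctrl, control siRNA; A and B, SOX9 siRNAs; 1 and 2, replicates) for PLAT and its 5 nearest genes (left) and MMP10 and its 5 nearest genes (right). The PLAT group is lowest in both replicate 2 knockdown arrays, and the MMP10 group is above both controls in all 4 knockdown arrays. The nearest genes were chosen by likeness over these same arrays.

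Few neighbours of MMP10 in its gene cluster gave a signal. In the chromosome 11 order MMP7, MMP20, MMP27, MMP8, MMP10, MMP1, MMP3, MMP12 and MMP13, 2 of the 9 genes passed the dim filter, MMP7 and MMP10. The other 7 had no signal above 19.3 in any array. MMP3, stromelysin-1 and the closest relative of MMP10, read 9.2 and 5.1 with control, 17.0 and 1.5 with siRNA A, and 3.0 and 1.9 with siRNA B. All 6 values lie under 22.

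Across the whole family, 9 of 22 metalloproteinases and 2 of 4 TIMPs were tested. Of the 6 tested metalloproteinases other than the members, 3 had a positive and 3 a negative difference, with a median of -0.05 and 0 called. MMP28, epilysin, read 299.5 and 269 with control, 215 and 102 with siRNA A, and 219 and 177 with siRNA B, a difference of -0.68. MMP9, gelatinase B, was at -0.37, MMP15 at -0.17 and MMP11 at 0.07. TIMP4 was at -0.37 and RECK, a membrane-anchored metalloproteinase inhibitor, at 0.14. MMP2, the enzyme that MMP14 and TIMP2 act on, was listed from 1.0 to 16.2 and not tested.

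**Figure D5:**
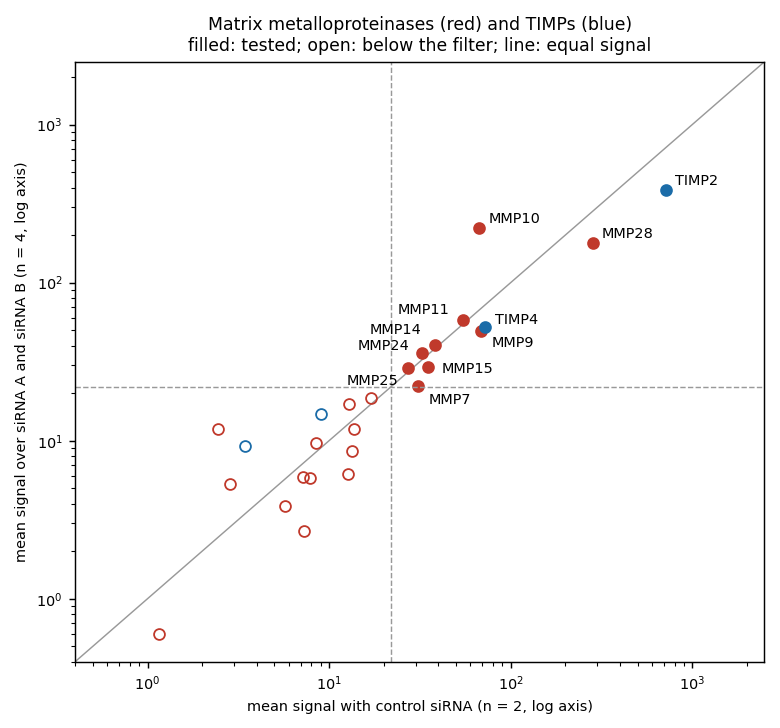
Mean signal over the 4 SOX9 siRNA arrays against mean signal over the 2 control arrays (both log axes) for the brightest probe set of 22 metalloproteinases (red) and 4 TIMPs (blue); dashed lines mark 22 and the diagonal equal signal. MMP10 lies above the diagonal at a control mean of 67.2, and TIMP2 and MMP28 lie below it.

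Other genes around these proteases were taken in 9 lists of 117 genes, 111 with a probe set of their own and 71 tested. With limma 0 of the 71 were called for both siRNAs in either direction, where the background was 0.0403% of genes. The blocked fit called 5 of the 71, where the background was 3.54%. Of 9 tested genes of the plasminogen system, 6 were positive and 3 negative, with a median of 0.24. Among them PROCR, the endothelial protein C receptor, read 1018 and 835 with control, 759 and 307 with siRNA A, and 628 and 381 with siRNA B, a difference of -0.90. ENO1, an enolase that can bind plasminogen at the cell surface, was at -0.52, S100A10, a plasminogen-binding partner of annexin A2, at 0.30 and the plasminogen receptor PLGRKT at 0.38. Both PROCR and ENO1 were lowest in the replicate 2 knockdown arrays, and the blocked fit called both (limma adjusted p = 0.0116 and 0.0488).

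Of 10 tested ADAM and ADAMTS proteases, 4 were positive and 6 negative (median -0.16). ADAMTS1, a secreted protease of proteoglycans, read 298 and 453 with control, 581 and 1229 with siRNA A, and 730 and 1508 with siRNA B, a difference of 1.32 (SE 0.34). All 4 knockdown arrays were above both controls, and replicate 2 was the higher array in each group. The blocked fit called it (limma adjusted p = 1.25e-05). ADAM9 was at 0.45, ADAM33 at -0.40 and ADAM10 at -0.32.

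Of 10 tested epithelial serine proteases and inhibitors, 2 were positive and 8 negative (median -0.10). SPINK1, a trypsin inhibitor, was at 0.73, and its value came from replicate 2 of siRNA B, which read 489 where the other 5 arrays ran from 61.8 to 129. The blocked fit called it too (limma adjusted p = 0.0496). HPN, hepsin, was at -0.53, KLK4 at 0.44 and KLK3, prostate-specific antigen, at -0.41. Of 10 cathepsins and cystatins 7 were positive and 3 negative (median 0.25), with CTSA at 0.58, the cathepsin inhibitors CST3 at 0.43 and CSTB at 0.31, and CTSK at 0.33. Of 2 tested other metalloproteinase inhibitors, TIMP4 and RECK, 1 was positive and 1 negative.

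Matrix substrates gave 5 positive and 6 negative of 11 (median -0.06). HSPG2, perlecan, a heparan sulfate proteoglycan of basement membranes, read 450.2 and 389 with control, 346 and 123 with siRNA A, and 203 and 52.4 with siRNA B, a difference of -1.39 (SE 0.41). It was below both controls in all 4 arrays, lower in replicate 2 of each siRNA, and called by the blocked fit (limma adjusted p = 1.04e-06). That fit assumes an equal replicate difference in all groups, whereas the fall was smaller in control than with either siRNA. The laminin chains LAMA5, LAMB1 and LAMB2 were at 0.71, -0.54 and 0.23. Of 8 tested AP-1 factors 3 were positive and 5 negative (median -0.23), with JUN at -0.33, FOSL2 at -0.39, MAFF at -0.44 and ATF3 at -0.38. Of 5 tested ETS factors 2 were positive and 3 negative (median -0.24), with ETS2 at -0.34, ETS1 at -0.28, ELF3 at 0.04 and ERG at -0.24. ERG, the fusion partner, read 1901 and 2312 with control, 2726 and 1744 with siRNA A, and 1555 and 1353 with siRNA B, with overlapping groups. Of all tested genes 44.8% were positive.

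Prostate luminal markers were present in every group: all 8 of the 10 listed genes with a probe set of their own passed the dim filter, and their summed signal ran from 24167 to 29355 over the 6 arrays. Markers of other cell types that make these proteases were mostly dim, with 1 of 6 endothelial, 1 of 7 macrophage and leukocyte and 1 of 4 basal epithelial genes above the filter. Of 8 fibroblast genes 2 passed, COL1A1 and LUM, and their list summed to 364 to 553 with control, 427 to 752 with siRNA A and 1011 to 2301 with siRNA B. LUM, lumican, read 155 and 385 with control, 262 and 662 with siRNA A, and 702 and 2019 with siRNA B. COL1A1, a chain of type I collagen, read 135 and 115, 82.5 and 30.9, and 223 and 196 in the same order, below control with siRNA A and above it with siRNA B. The LUM order differed from MMP10, which was highest in replicate 1 of siRNA B, and the part of these transcripts in the MMP10 level was not tested. Over all probe sets the 2%-trimmed mean signal of the highest array was 1.32 times that of the lowest.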

How the data were processed

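Per the submitters' processing notes, MAS5 made the deposited values, an intensity per probe set on a linear scale; for its version and target the sources used here say nothing. Labelling used 6 ug of total RNA per sample, per the labels. Analyses ran on log2(signal + 16), and arrays were not rescaled. Of the probe sets, 62 controls were left out; 41097 had 1 gene symbol, 1801 several and 11777 none in the annotation table. A gene was represented by its brightest probe set, and genes whose mean lay under the probe sets' median (log2 of 5.25, a signal of 22) were left out, which gave 12421 tested and 7354 not tested genes. Probe sets ending in _s_at or _x_at can read several transcripts.

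Genes were fitted with limma 3.58.1 in R 4.3.3 (lmFit on 3 groups over 6 arrays, 3 residual degrees of freedom, eBayes with a trend) and counted as called where the p adjusted by Benjamini-Hochberg was below 0.05. The script was tested on simulated data. The members, lists and tests were chosen with earlier results of these data known. Named genes were all members, SOX9, the 4 or fewer genes of lowest p in each list, the 5 nearest patterns to PLAT and MMP10, and the cluster genes; LUM, COL1A1 and MMP2 fall outside this rule and were named after their values were seen. Nothing says that the duplicates came from separate cultures beyond the design's wording, so p-values measure the spread between these arrays. Same-numbered arrays deviated together between the siRNAs (r = 0.63) and much less between each siRNA and control (r = 0.18). The fit reported did not use the replicate number. Only the blocked fit and the differences by replicate number paired the arrays by it. The small number of arrays limits the precision. Protein sequences were not used here, and the planned protein comparison was not made.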

Additional observations from a re-analysis of the deposited data

How the results depend on the processing

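Alternatives covered the log offset, scaling, the dim filter, the probe set rule, eBayes settings, the groups fitted, the replicate block and arrays left out; those for the list genes were added after the data were seen. For both siRNAs against control, PLAT was negative (-3.83 to -1.21) and MMP10 positive (1.08 to 1.68) in all 22, with MMP10 at 1.08 under an offset of 64. For both genes the knockdown arrays all lay on the same side of both controls, so leaving out arrays could not turn either sign. Of the 7 tested members, 0 were called in the fit reported, where 0.0403% of all genes were. The count was 1 (MMP10) with the stricter filter (4 members tested; 0.0913% of all genes called) and 1 (MMP10) with robust eBayes (0.0564%), 3 with the replicate block alone (3.54%) or with median centring (4.27%), and 0 to 1 with 1 array left out (0% to 0.499%). A group left with 1 array was assumed to vary like the others. The 1 call was PLAT without replicate 1 of siRNA A or either control array, and MMP10 without replicate 1 of siRNA B. Without replicate 1 of both siRNAs 3 were called, PLAT, MMP10 and TIMP2, in a fit that took the other 2 siRNA arrays as 1 group and called 4.85% of all genes; without replicate 2 it called 0 members and 0% of genes.

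With siRNA A the count of called members was 0 in the fit reported, where 0.0161% of all genes were called. It became 3 with the replicate block (1.8%) and 2 when median centring was added (1.56%). Leaving out 1 array also raised it in some fits, through PLAT, but a group then held 1 array. With 1 array left out the siRNA A difference of PLAT ran from -4.10 to -0.67. With siRNA B the count was 1 in the fit reported, where 0.185% of all genes were called. It became 0 with quantile normalization, median centring, a common trimmed mean or no filter, each with 0% of all genes called. It was also 0 with probe sets in place of genes (0.0623% of probe sets), eBayes without a trend (0.113%) or only the compared groups (0.0644%). With 1 array left out the siRNA B difference of MMP10 ran from 1.21 to 2.09 and that of PLAT from -3.57 to -1.75. The count rose in some of these fits, with PLAT among the called genes, and fell in others, but a group then held 1 array. The siRNA B count was 3 with the replicate block alone (5.89% of all genes called) and when median centring was added (8.5%). For siRNA A against siRNA B it was 0 in all 20. There PLAT turned to -0.40 with an offset of 1, -1.44 without replicate 1 of siRNA A and -0.63 without replicate 2 of siRNA B, and MMP10 to 0.052 without replicate 1 of siRNA B; with 1 array left out they ran from -1.44 to 1.99 and from -0.82 to 0.052. The offset weighs the dim PLAT signals; the cause of the others was not tested beyond the array left out. For both siRNAs 0 of the 71 list genes were called, 5 with the replicate block and 6 when median centring was added. Without replicate 1 of both siRNAs 6 were called, and without replicate 2 the count was 0. The shares of all genes in these fits are given above for both siRNAs. MMP14 was negative in 4 and PLAUR positive in 1 of their alternatives. The 2 arrays per group limit every value.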
